A study of Sus scrofa with 4 samples.

Results

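The genes described here are 38 genes of smooth muscle cells and pericytes, chosen by name for their part in contraction or for marking the contractile cells of vessel and airway walls. Of these, 36 were found among the 29263 genes of the count tables, 34 by symbol and 2 (MYL6 and TPM2) through their Ensembl identifiers. SYNM and PLN were not matched. They were measured by RNA sequencing of pig lung cells. The pigs carry a knock-in, LGR5-H2B-GFP, that puts a green fluorescent histone under the LGR5 locus. All 4 libraries share this genotype, so no library without the knock-in serves as a control. The cells were separated by fluorescence-activated sorting after enzymatic digestion into GFP-HI cells (2 libraries, biological replicates 1 and 2) and GFP-NEG cells (2 libraries, numbered likewise). Antibodies to EpCAM and NGFR are named for the sorting in general, without saying whether they gated these libraries. The protocol covers adult and fetal lung together, and only the name of the deposited comparison table carries the words adult pig. The knock-in marks any lung cell that transcribes LGR5, so neither fraction is a purified smooth muscle or pericyte population.

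Smooth muscle shortens when myosin filaments pull on actin filaments. Calcium entering the cell activates myosin light chain kinase, which phosphorylates the regulatory light chains, and calponin, caldesmon and tropomyosin set how actin and myosin meet. The actin filaments are anchored in dense bodies and dense plaques by alpha-actinin, filamin, vinculin and LIM-domain proteins, and desmin links these anchors. Pericytes wrap capillaries, and RGS5, CSPG4, HIGD1B, COX4I2, NDUFA4L2, MCAM and ABCC9 are used to mark them. In the lung, ACTA2 and TAGLN are also made by myofibroblasts and CSPG4 by other mesenchymal cells, so none of these genes marks a single cell type on its own.

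The GFP-HI libraries held 24200550 and 24689986 counts and the GFP-NEG libraries 6292253 and 7045652, so depth and group cannot be told apart. LGR5 itself was counted 3218 and 3073 times in the GFP-HI libraries against 10 and 7 times in the others. Levels are given as CPM, the counts scaled to a common library total with TMM factors. The labels call the replicates biological, and headings of the authors' table number the pigs. Those headings belong to its columns of normalized values, some of which name another library than their values. With 2 libraries a group, the p-values and standard errors rest on a spread pooled over genes of similar level, not on each gene's own replicates. In the RefSeq gene table the spans of 12 of the 35 members listed overlap another gene. Among them are MYH11, MYLK, FLNC, PDLIM3, SYNPO2 and MCAM, and reads shared there cannot be assigned. Markers of other lung cells differed between the fractions. The summed level of 11 fibroblast markers was 88258 and 84211 CPM in GFP-HI against 26691 and 9541 CPM in GFP-NEG (replicates 1 and 2), and 8 of the 11 were higher in GFP-HI at an adjusted p under 0.05. Summed immune markers were at 366 and 598 CPM against 2111 and 2639 CPM, with 8 of 12 lower in GFP-HI. Summed endothelial markers were at 205 and 203 CPM against 1329 and 569 CPM, with 7 of 8 lower. In sorted bulk cells, fewer cells of a type and less RNA per cell cannot be told apart. The part these cell types play in the results that follow was not tested.

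Contractile genes moved in both directions. Of the 35 members that passed the filter on low counts, 5 were higher in GFP-HI (MYLK, FLNC, PDLIM3, CSPG4 and COX4I2) and 7 were lower (ACTG2, MYH11, DES, LDB3, RGS5, MCAM and ABCC9) at an adjusted p under 0.05 in edgeR's quasi-likelihood test. These are 14.3% and 20.0% of the tested members, beside 8.35% of all 19682 tested genes higher and 27.6% lower. The median log2 fold change (GFP-HI over GFP-NEG) was 0.43 over the tested members and -0.25 over all tested genes. The calls of MYH11, FLNC, PDLIM3, RGS5, CSPG4 and COX4I2 held under each of the 9 other settings of scaling, filter, depth, test and block that kept all 4 libraries. The groups did not overlap for 10 members higher in GFP-HI and 7 lower (28.6% and 20.0%, beside 27.7% and 42% of all tested genes). A further fit took the replicate number as a block, treating same-numbered fractions as paired within an animal. With this block 8 members were higher and 3 lower, beside 8.67% and 24.4% of all tested genes. In this edgeR fit SMTN, SYNPO2 and FHL1 were added to the 5 higher genes (adjusted p of 0.042, 0.036 and 0.044), and MYH11, RGS5 and MCAM were the lower genes that kept their call. DESeq2 without the block called 6 higher, the 5 and FHL1, and 4 lower (background 5.6% and 24.9%). DESeq2 with the block called 8 higher, the 5 with TPM1, SMTN and FHL1, and 2 lower, MYH11 and RGS5 (background 6.26% and 16.3%). Without GFP-NEG replicate 1 the test called 16 members higher and 1 lower (background 7.62% and 23.3%). Without GFP-NEG replicate 2 it called 0 higher and 5 lower (background 1.23% and 8.98%), so the counts depend on which GFP-NEG library is used.

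**Figure D1:**
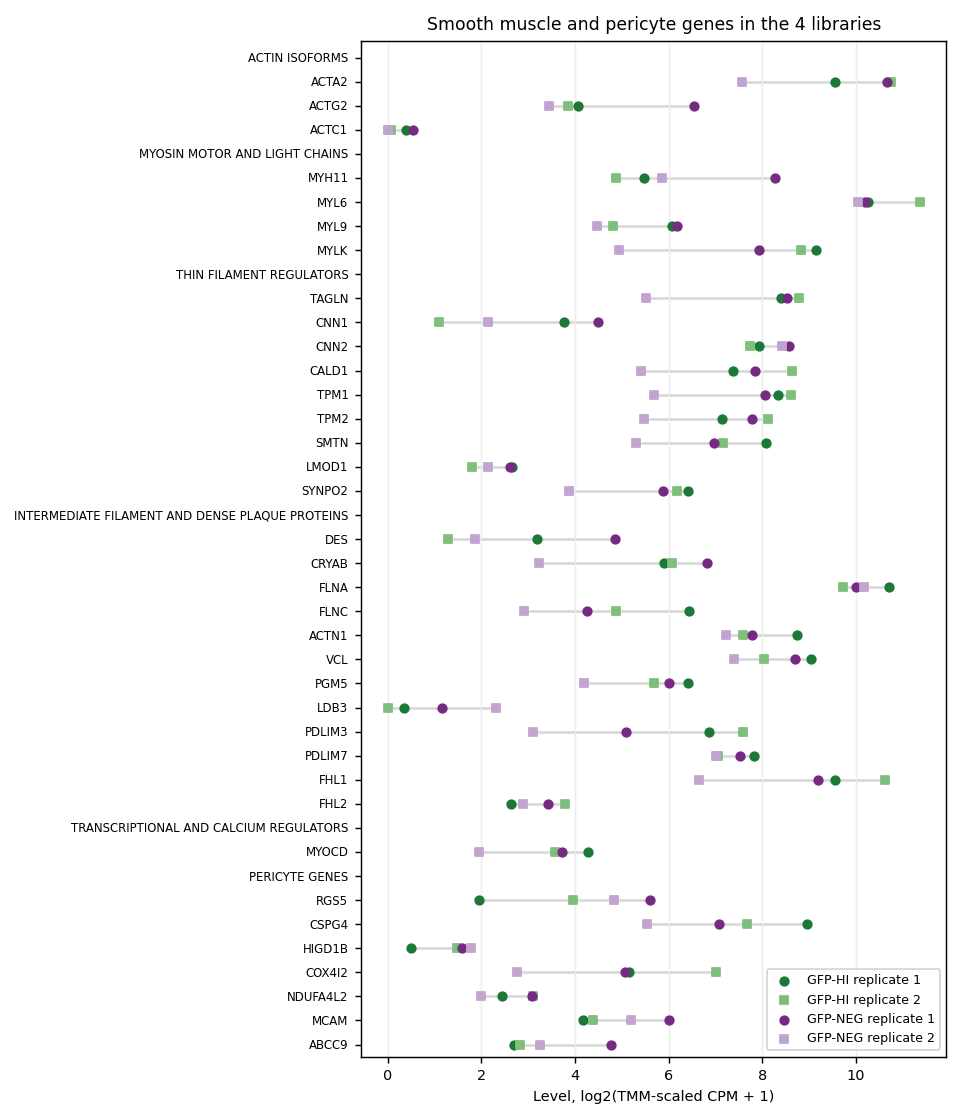
Level of each of the 36 members found, as log2(TMM-scaled CPM + 1), in the 4 libraries (green, GFP-HI; purple, GFP-NEG; circles, replicate 1; squares, replicate 2), with a grey line spanning the range. For many members the pale purple square of GFP-NEG replicate 2 is the lowest point, as for ACTA2 at 187 CPM, while MYH11, RGS5 and MCAM have both purple points above both green ones.

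**Figure D2:**
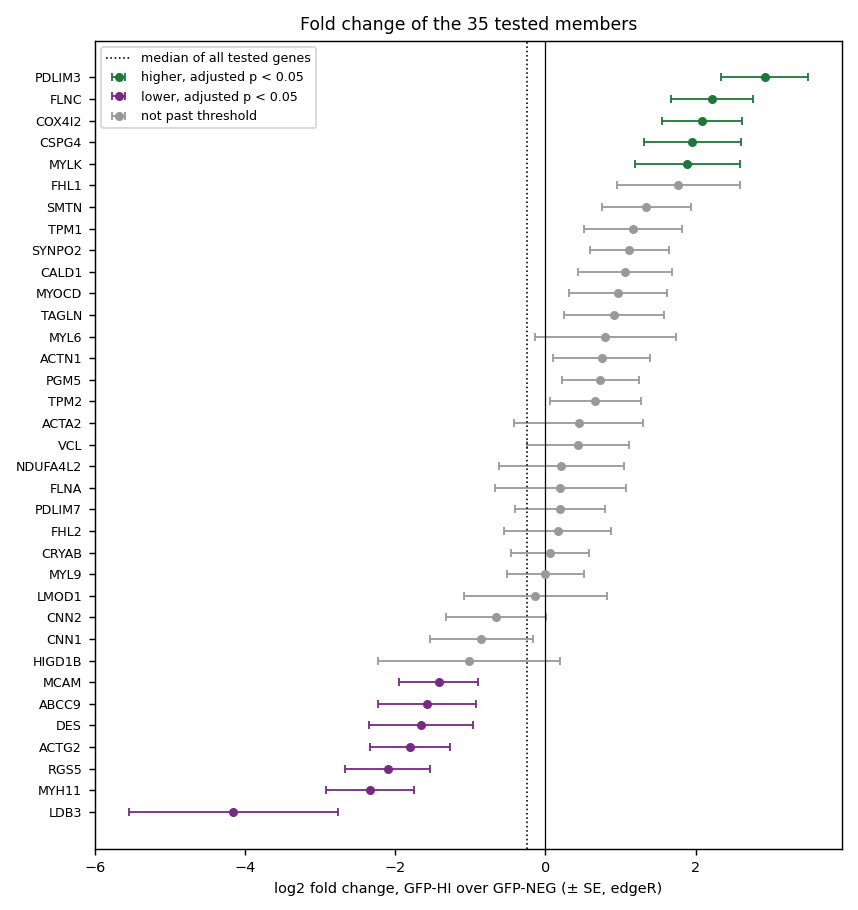
Log2 fold change of the 35 tested members, GFP-HI over GFP-NEG, with its standard error from edgeR (2 libraries in each group); green and purple mark adjusted p under 0.05 and the dotted line is the median of all tested genes at -0.25. PDLIM3 is at the top with 2.92, and LDB3 at the bottom with -4.16 and the widest error. The errors rest on a spread pooled over genes of similar level, not on each gene's own replicates.

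Neither smooth muscle actin was set apart between the fractions in both replicates. ACTA2, the vascular smooth muscle actin, was at 751 and 1706 CPM in GFP-HI replicates 1 and 2 and at 1617 and 187 CPM in GFP-NEG replicates 1 and 2. The groups overlapped, since GFP-NEG replicate 1 was close to the higher GFP-HI library and GFP-NEG replicate 2 was far below every other. Its log2 fold change was 0.45 ± 0.86 (SE, adjusted p of 0.73), and the difference within replicates, taken on log2(CPM + 1), was -1.11 in replicate 1 and 3.18 in replicate 2. ACTG2, the actin of visceral smooth muscle, was at 15.7 and 13.3 CPM in GFP-HI and at 92.1 and 9.87 CPM in GFP-NEG. It fell by 1.81 ± 0.53 (SE) on the log2 scale (adjusted p of 0.0031), but only GFP-NEG replicate 1 stood above the GFP-HI libraries. Without that library the log2 fold change was 0.61, and with the replicate block the adjusted p was 0.16. ACTC1, the cardiac actin, did not pass the filter, with 7 and 1 counts for GFP-HI against 3 and 0. A count of 0 in GFP-NEG replicate 2 allows up to 0.329 CPM, for counting error only. Actin genes are close copies of each other, and reads shared among them could have been split by the counting.

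Of the myosin genes, the heavy chain was lower and the kinase that activates it was higher in GFP-HI. MYH11, the smooth muscle myosin heavy chain and the most specific gene of mature smooth muscle in this list, was at 43.5 and 28.4 CPM in GFP-HI and at 306 and 57.1 CPM in GFP-NEG. Both GFP-NEG libraries were above both GFP-HI libraries. MYH11 was 5.05-fold lower in GFP-HI, a log2 fold change of -2.34 ± 0.58 (SE, adjusted p of 3.9e-04). It was -0.62 without GFP-NEG replicate 1 (adjusted p of 0.53) and -3.13 without GFP-NEG replicate 2, and leaving out GFP-HI replicate 1 or 2 ended the call (adjusted p of 0.052 and 0.13). MYLK, which encodes myosin light chain kinase, was at 564 and 449 CPM in GFP-HI and at 244 and 29.6 CPM in GFP-NEG. It was 3.71-fold higher, with the groups apart and a log2 fold change of 1.89 ± 0.69 (SE, adjusted p of 0.021). With GFP-HI thinned to the mean GFP-NEG depth, its adjusted p was 0.051 and the call was lost. MYLK is also expressed outside smooth muscle, and its value without GFP-NEG replicate 2 was 1.02 (adjusted p of 0.64). Its call was also lost without GFP-HI replicate 1 or 2 (adjusted p of 0.13 and 0.11). The light chains did not pass the threshold. MYL9, the regulatory light chain that the kinase phosphorylates, was at 65.8 and 27.1 CPM against 71.9 and 21.3 CPM, and its higher values came from replicate 1 in both fractions. MYL6, the essential light chain of smooth muscle and nonmuscle myosin, was at 1221 and 2628 CPM against 1169 and 1046 CPM (log2 fold change 0.80, adjusted p of 0.55).

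None of the 9 thin filament regulators passed the threshold in edgeR or in DESeq2 without the replicate block. With the block, SMTN and SYNPO2 were higher in edgeR, and TPM1 and SMTN in DESeq2. At an unadjusted p under 0.05, 2 were higher (SMTN and SYNPO2) and 0 lower in edgeR. TAGLN, the actin-bundling protein transgelin, was at 338 and 442 CPM in GFP-HI and at 368 and 44.6 CPM in GFP-NEG. CALD1, caldesmon, was at 165 and 394 CPM against 228 and 41.5 CPM. For both genes GFP-NEG replicate 1 lay among the GFP-HI libraries and GFP-NEG replicate 2 lay far below them. The tropomyosin genes TPM1 (321 and 389 CPM against 265 and 50.9 CPM) and TPM2 (139 and 276 CPM against 218 and 43.2 CPM) showed the same order of the GFP-NEG libraries. The log2 fold changes of these 4 genes ran from 0.67 (TPM2) to 1.17 (TPM1), with adjusted p-values of 0.42 and 0.16 at those ends. For TPM1 the adjusted p with the block was 0.072 in edgeR and 0.036 in DESeq2.

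SMTN, smoothelin of contractile smooth muscle, was at 269 and 143 CPM in GFP-HI and at 124 and 38.3 CPM in GFP-NEG, with the groups apart and a log2 fold change of 1.34 ± 0.59 (SE, adjusted p of 0.063). SYNPO2, an actin-binding protein of the Z-disc and dense bodies, was at 84.3 and 71.0 CPM against 58.1 and 13.6 CPM (log2 fold change 1.12, adjusted p of 0.081). Both were past the threshold only in some fits, among them the replicate block. The calponins had values on the other side of 0. CNN1, the smooth muscle calponin, was at 12.5 and 1.14 CPM against 21.4 and 3.40 CPM, and replicate 1 was above replicate 2 in each fraction. CNN2, the calponin found in many cell types, was at 242 and 213 CPM against 377 and 342 CPM, with both GFP-NEG libraries above both GFP-HI libraries. Their log2 fold changes were -0.85 and -0.66 (adjusted p of 0.36 and 0.47). LMOD1, an actin filament nucleator of smooth muscle, was low in every library, between 2.48 and 5.26 CPM.

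The 12 measured genes of intermediate filaments, dense plaques and LIM-domain anchors included 2 that rose and 2 that fell. The shares over all tested genes were 8.35% and 27.6%. PDLIM3, a PDZ and LIM protein that binds alpha-actinin, had the largest rise of all members. It was at 116 and 191 CPM in GFP-HI and at 33.1 and 7.56 CPM in GFP-NEG, 7.58-fold higher (log2 fold change 2.92 ± 0.58 SE, adjusted p of 1.5e-05). The lower GFP-HI library was above the higher GFP-NEG library, and the log2 fold change stayed between 2.18 and 4.39 when single libraries were left out, and missed the threshold without GFP-NEG replicate 2 (adjusted p of 0.084). FLNC, a filamin best known from striated muscle, was at 85.7 and 28.6 CPM in GFP-HI and at 18.2 and 6.47 CPM in GFP-NEG. In each fraction replicate 1 was the higher library, and the difference was 2.18 within replicate 1 and 1.98 within replicate 2. FLNC was 4.66-fold higher (log2 fold change 2.22 ± 0.54 SE, adjusted p of 2.8e-04). Without GFP-HI replicate 1 and without GFP-NEG replicate 2 its values were 1.33 and 1.61 and did not pass the threshold.

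DES, the muscle intermediate filament desmin, was at 8.16 and 1.44 CPM in GFP-HI and at 27.8 and 2.63 CPM in GFP-NEG. The groups overlapped, and replicate 1 was above replicate 2 in each fraction. Its log2 fold change was -1.65 ± 0.69 (SE, adjusted p of 0.047), but 0.92 without GFP-NEG replicate 1, and the adjusted p with the replicate block was 0.075. With all 4 libraries kept, the call of DES held in 4 of the 9 other settings. It was also lost under DESeq2, under thinning and with a filter of at least 1 CPM in 2 libraries. LDB3, a Z-disc protein of striated muscle, was near the detection limit, with 6 and 0 counts for GFP-HI against 8 and 36. Its log2 fold change of -4.16 ± 1.39 (SE, adjusted p of 0.010) rests on these few counts, and the adjusted p with the block was 0.067.

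FHL1, a LIM-only protein of muscle and mesenchyme, was at 754 and 1568 CPM in GFP-HI and at 581 and 98.9 CPM in GFP-NEG. Its groups were apart, and the log2 fold change of 1.77 ± 0.82 (SE) had an adjusted p of 0.078. FHL1 was called higher with the replicate block in edgeR (2.18, adjusted p of 0.044) and in DESeq2 with and without the block (adjusted p of 0.0081 and 0.043). The gap within replicate 1 was small, at 0.37, and that within replicate 2 was 3.97. CRYAB, a small heat shock protein that stabilises desmin, was at 59.1 and 66.0 CPM in GFP-HI, between the 112 and 8.33 CPM of GFP-NEG. PGM5, a dense plaque protein, was at 84.0 and 50.4 CPM against 63.7 and 17.3 CPM, so that the groups overlapped.

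The widely expressed anchors FLNA, ACTN1, VCL and PDLIM7 did not pass the threshold, with adjusted p-values from 0.39 (ACTN1, log2 fold change 0.75) to 0.89 (FLNA, 0.20). FLNA, the general filamin, was at 1654 and 841 CPM against 1021 and 1149 CPM. ACTN1, an alpha-actinin, was at 425 and 191 CPM against 218 and 148 CPM. VCL, vinculin, was at 526 and 261 CPM against 416 and 167 CPM. For all 3 genes GFP-HI replicate 1 was the highest library and the groups overlapped. PDLIM7, a PDZ and LIM protein, was at 224 and 132 CPM against 183 and 128 CPM. The sign of the fold change of FLNA and PDLIM7 turned under library-size and upper-quartile scaling. FHL2, a LIM-only transcriptional cofactor, ranged from 5.16 to 12.9 CPM over the 4 libraries, with no order between the groups.

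MYOCD encodes myocardin, the coactivator that switches on smooth muscle contractile genes through the serum response factor. Counts of 407 and 220 for GFP-HI and of 79 and 26 for GFP-NEG gave 18.4 and 10.9 CPM against 12.3 and 2.85 CPM. The groups overlapped, and the log2 fold change of 0.97 ± 0.66 (SE) did not pass the threshold (adjusted p of 0.26). MYOCD was thus detected in both fractions, with GFP-HI replicate 2 between the GFP-NEG libraries.

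Pericyte genes went in both directions. CSPG4, the NG2 proteoglycan on the pericyte surface, was at 495 and 202 CPM in GFP-HI and at 134 and 45.6 CPM in GFP-NEG. All GFP-HI values were above all GFP-NEG values, and the gap within replicates 1 and 2 was 1.88 and 2.13. CSPG4 was 3.89-fold higher in GFP-HI (log2 fold change 1.96 ± 0.65 SE, adjusted p of 0.0095), with values of 1.28 without GFP-HI replicate 1 and 1.34 without GFP-NEG replicate 2, neither of which passed the threshold. COX4I2, a cytochrome c oxidase subunit with high expression in lung, was at 34.7 and 128 CPM in GFP-HI and at 32.8 and 5.81 CPM in GFP-NEG. Although the groups were apart by a small margin and the log2 fold change was 2.09 ± 0.54 (SE, adjusted p of 5.5e-04), the gap was 0.08 within replicate 1 but 4.25 within replicate 2, and the fitted value was 0.89 without GFP-HI replicate 2 and 1.28 without GFP-NEG replicate 2, neither past the threshold.

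RGS5, a regulator of G-protein signalling and the best known pericyte transcript, was at 2.85 and 14.6 CPM in GFP-HI and at 47.7 and 27.3 CPM in GFP-NEG. Both GFP-NEG libraries were above both GFP-HI libraries, and the lowest value was in GFP-HI replicate 1. RGS5 was 4.29-fold lower in GFP-HI (log2 fold change -2.10 ± 0.56 SE, adjusted p of 0.0010), but missed the threshold without GFP-HI replicate 1 (-1.23) or GFP-NEG replicate 1 (-1.59). MCAM, the adhesion molecule CD146 that endothelial cells also carry, was at 17.1 and 19.8 CPM against 63.5 and 35.7 CPM. It fell by 1.42 ± 0.53 (SE) on the log2 scale, with an adjusted p of 0.022. Its call was lost whichever library was left out (-1.82 to -0.90). ABCC9, the sulfonylurea receptor subunit of the pericyte potassium channel, was at 5.53 and 6.10 CPM against 26.2 and 8.55 CPM. It fell by 1.58 ± 0.65 (SE, adjusted p of 0.045, and 0.061 with the replicate block), and its call held only without GFP-NEG replicate 2 (-2.21) when a library was left out. With all 4 libraries kept, ABCC9 was called in 4 of the 9 other settings. For MCAM and ABCC9 the GFP-HI libraries were close together and both below GFP-NEG. HIGD1B (0.408 to 2.41 CPM) and NDUFA4L2 (2.96 to 7.54 CPM) were low in all libraries and were not called. The summed endothelial markers were lower in GFP-HI too, as was MCAM, and their part in its value was not tested.

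Within replicates the members behaved differently. Among the 36 members found, GFP-HI was above GFP-NEG for 17 in replicate 1 and for 25 in replicate 2, and the median difference in log2(CPM + 1) was -0.12 and 1.01. Over the 26737 genes with at least 1 count, 35.5% were above 0 in replicate 1 and 33% in replicate 2. Of the 35 tested members, 17 and 24 were above 0, beside 44.1% and 42.8% of all tested genes. GFP-HI was above GFP-NEG in both replicates for 15 of them and below in both for 9, beside 33.4% and 46.5% of all tested genes. The difference was larger in replicate 2 for 27 of the 35, beside 45.8% of all tested genes. GFP-HI was higher by at least 1 on the log2 scale for 5 of the 35 tested members in replicate 1 (14.3%, against 9.84% of all tested genes) and for 18 in replicate 2 (51.4%, against 21.3%). The 5 members of replicate 1, MYLK, FLNC, PDLIM3, CSPG4 and SMTN, were higher by at least that much in replicate 2 as well. Signs were opposite in the 2 replicates for 11 of the 35 (31.4%, against 20% of all tested genes), among them ACTA2, ACTG2, TAGLN, CALD1, TPM2 and CRYAB. Across the 35 members the replicate 1 and replicate 2 differences correlated with a Pearson r of 0.52, beside an r of 0.78 across all tested genes. These correlations are descriptions across genes, which share their libraries and their scaling.

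**Figure D3:**
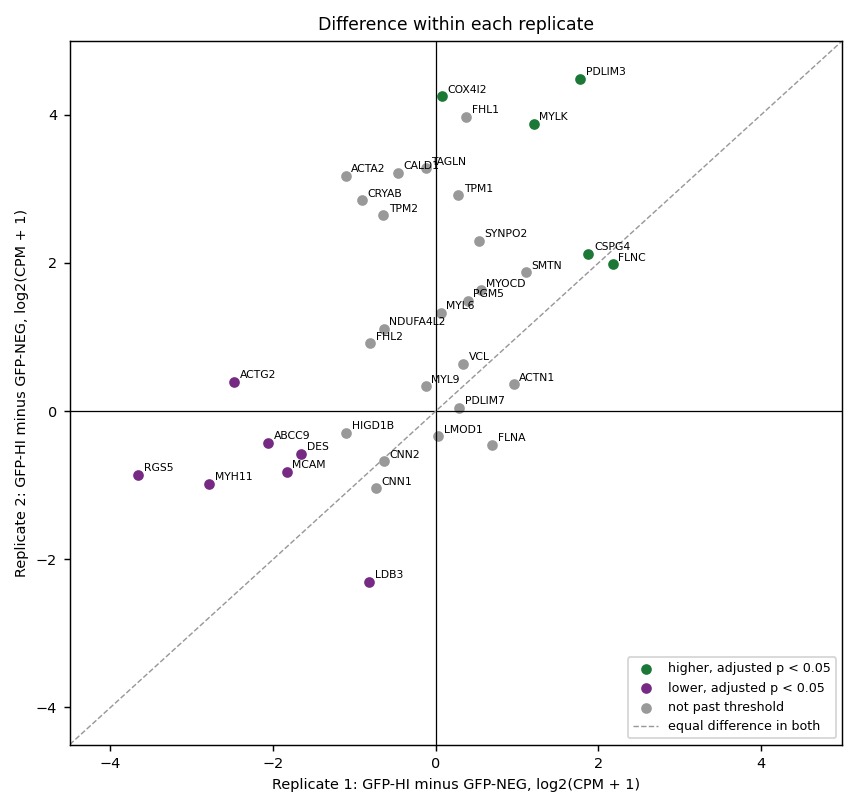
Difference between GFP-HI and GFP-NEG in log2(CPM + 1) within replicate 1 (horizontal) and within replicate 2 (vertical) for the 35 tested members, with the dashed line marking equal differences. Of the 35 points, 27 lie above the line, among them ACTA2 at -1.11 and 3.18, whereas CSPG4 and FLNC lie close to it.

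The libraries of a group differed from each other, most of all in GFP-NEG. Of the 35 tested members, 32 were higher in GFP-NEG replicate 1 than in GFP-NEG replicate 2 (91.4%, against 44.8% of all tested genes), and 24 were higher by at least 1 on the log2 scale (68.6%, against 11.2%). The median difference between the GFP-NEG libraries was 1.71 over the members and -0.10 over all tested genes. In either direction, 25 members differed by at least 1 on the log2 scale between the GFP-NEG libraries (71.4%, against 25.6% of all tested genes), and 14 did between the GFP-HI libraries (40.0%, against 15.5%). The GFP-HI differences had no common direction, with 19 of 35 members higher in replicate 1. CNN1 was higher there by 2.66, while RGS5, COX4I2 and ACTA2 had differences of -2.02, -1.86 and -1.18. The summed level of all members was 8757 and 10519 CPM in GFP-HI and 8175 and 3807 CPM in GFP-NEG. Other mesenchymal and vascular markers differed the same way between the GFP-NEG libraries. Replicate 1 held 2.80 times the summed fibroblast markers, 2.34 times the endothelial and 3.76 times the epithelial markers of replicate 2, but 0.80 times the immune markers. The part of these differences in the member values was not tested.

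Count ratios within a library do not depend on library scaling. The pairs were chosen after the values were seen, and the ratios are given as raw counts of a gene per 100 counts of its partner, with no test and no meaning as levels between genes. MYH11 had 5.80 and 1.66 counts per 100 of ACTA2 in GFP-HI against 18.9 and 30.5 in GFP-NEG. ACTG2 had 2.09 and 0.782 counts per 100 of ACTA2 against 5.70 and 5.27. For both genes the GFP-NEG ratios were above the GFP-HI ratios in each replicate, by 3.27 and 18.3 times for MYH11 and by 2.72 and 6.74 times for ACTG2. TAGLN behaved otherwise, with 45.0 and 25.9 counts per 100 of ACTA2 in GFP-HI against 22.8 and 23.8 in GFP-NEG. DES had 1.09 and 0.0843 counts per 100 of ACTA2 against 1.72 and 1.40, and CNN1 had 1.67 and 0.0668 against 1.33 and 1.81, so that CNN1 did not separate the fractions in replicate 1. Among pericyte genes, RGS5 had 0.576 and 7.23 counts per 100 of CSPG4 in GFP-HI against 35.6 and 59.9 in GFP-NEG, and MCAM had 3.46 and 9.80 against 47.4 and 78.4. RGS5 and MCAM were lower and CSPG4 higher in GFP-HI with the groups apart. Their ratios therefore had to separate the fractions and restate those differences.

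**Figure D4:**
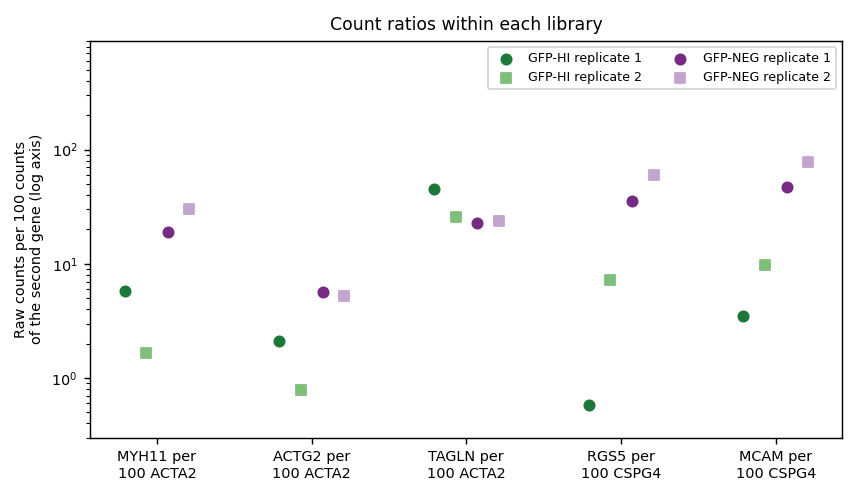
Raw counts of a gene per 100 counts of a second gene in each of the 4 libraries, on a log axis (green, GFP-HI; purple, GFP-NEG). The purple points of MYH11, ACTG2, RGS5 and MCAM all lie above the green points of the same gene, while TAGLN per 100 ACTA2 spans only 22.8 to 45.0. For RGS5 and MCAM this follows from their own levels and that of CSPG4.

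The other genes of contraction and of vessel-wall cells were taken from 5 lists of 76 genes in all, of which 66 were tested. Of these, 13 were higher and 6 lower in the GFP-HI libraries, and the median log2 fold change was 0.37, beside 8.35% higher and 27.6% lower of all tested genes. Library-size scaling and upper-quartile scaling each gave 9 higher and 9 lower, beside 4.51% and 29.1% (library size) and 5.5% and 28.6% (upper quartile) of all tested genes. Among 18 tested genes of vessel-wall cells, 5 were higher and 3 lower. HEYL, a Notch target of vascular smooth muscle, rose most, from 6.68 and 3.29 CPM in GFP-NEG to 117 and 77.3 CPM in GFP-HI (log2 fold change 4.30, adjusted p of 2.0e-10). PDGFRB, the platelet-derived growth factor receptor of pericytes and fibroblasts, rose by 2.56, and ANGPT1, the angiopoietin that pericytes secrete, rose by 2.24 (adjusted p of 0.0015 and 2.4e-04). STEAP4 (log2 fold change -3.86), ITGA7, a laminin-binding integrin of muscle (-3.10), and EDNRB, the endothelin B receptor that endothelial cells also carry (-2.88), were lower (adjusted p of 2.3e-06, 5.0e-05 and 5.7e-06). Each of these 6 genes had its groups apart. The calls of PDGFRB and ANGPT1 were lost without GFP-NEG replicate 2 (1.79 and 1.42, adjusted p of 0.30 and 0.31). That of PDGFRB was also lost without GFP-HI replicate 1 (2.16) and that of ANGPT1 without GFP-HI replicate 2 (1.87).

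In the list around the serum response factor, 5 of 11 tested genes were higher and 0 lower in edgeR, beside 8.35% and 27.6% of all tested genes, with 1 lower at an unadjusted p under 0.05 and 0 lower in DESeq2. The list's median log2 fold change was -0.14, with only 5 of the 11 above 0. SRF, the gene of the serum response factor itself, was at -0.24 (adjusted p of 0.88). With the replicate block edgeR also called MRTFA, a coactivator of the serum response factor, lower (log2 fold change -1.51, adjusted p of 0.038). Without the block MRTFA was not called (-1.37, adjusted p of 0.078). MRTFB, of the same list, was higher in edgeR without and with the block (1.41 and 1.48, adjusted p of 0.022 in both). It was at 60.3 and 66.9 CPM in GFP-HI against 31.4 and 16.4 CPM in GFP-NEG. The transcription factors PRRX1, TBX18 and FOXF1, all of mesenchymal lineages, rose by 2.40, 2.24 and 2.06 (adjusted p of 1.4e-04, 6.6e-04 and 0.0010). All 3 calls were lost without GFP-NEG replicate 2 (1.74, 1.64 and 1.33), and that of FOXF1 also without GFP-HI replicate 1 (1.47). These factors are also expressed by fibroblasts, whose summed markers moved the same way, and their part was not tested. In the calcium list 1 of 13 tested genes was higher and 2 were lower. CACNA1C, the pore of the L-type calcium channel, rose by 2.52, from 2.95 and 2.30 CPM to 19.5 and 10.5 CPM (adjusted p of 0.0037). Its call was lost without GFP-HI replicate 1 or GFP-NEG replicate 2 (2.13 and 2.31). KCNMB1, the smooth muscle subunit of the large-conductance potassium channel, was at 0.861 and 0.446 CPM in GFP-HI against 10.2 and 0.877 CPM in GFP-NEG. Its log2 fold change was -3.06 (adjusted p of 0.026, and 0.11 with the replicate block), and -0.37 without GFP-NEG replicate 1, the high library. Its call was also lost without GFP-HI replicate 1 or 2 (adjusted p of 0.094 and 0.17). ORAI1, the store-operated calcium channel, fell by 2.43 (adjusted p of 0.0024), from 25.5 and 9.43 CPM to 3.26 and 3.17 CPM. When a library was left out, its call held only without GFP-NEG replicate 2 (-3.02). Leaving out GFP-NEG replicate 1 gave an adjusted p of 0.22, and leaving out either GFP-HI library gave 0.059 (replicate 1) and 0.057 (replicate 2). DESeq2 with the replicate block gave 0.051.

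Nonmuscle relatives of the contractile proteins were compared to see which forms of a family moved. The list of nonmuscle cytoskeleton genes holds these relatives and also VIM, ZYX and TLN1. None of its 12 tested genes passed the threshold in edgeR without the replicate block. At an unadjusted p under 0.05, 1 was higher, and 1 was higher in DESeq2. The list's median log2 fold change was 0.17. In the actin family, ACTB was at 1182 and 2059 CPM in GFP-HI and 2593 and 3207 CPM in GFP-NEG, and ACTG1 at 4039 and 2308 CPM against 3650 and 3128 CPM. Their log2 fold changes of -0.84 and -0.09 lay between those of ACTG2 and ACTA2. MYH9, a nonmuscle myosin heavy chain, was at 58.0 and 57.3 CPM against 69.6 and 84.4 CPM, a log2 fold change of -0.42, against -2.34 for MYH11. The calponin CNN3 had the largest positive value of the relatives, 1.51 ± 0.71 (SE, adjusted p of 0.084), with 622 and 535 CPM against 346 and 59.3 CPM. With the block CNN3 was called higher (2.01, adjusted p of 0.026). The tropomyosin TPM3 was at -1.24 and TPM4 at 1.17, with adjusted p-values of 0.20 and 0.25. Differences between the members of a family were not tested.

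**Figure D5:**
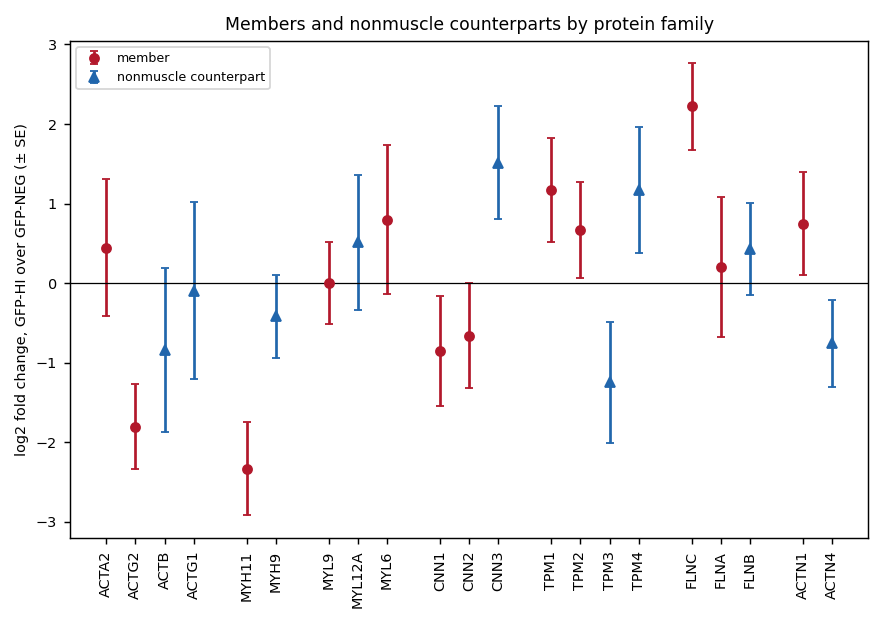
Log2 fold change, GFP-HI over GFP-NEG, with its standard error from edgeR, for members (red circles) and their nonmuscle relatives (blue triangles) by protein family. ACTG2 at -1.81, MYH11 at -2.34 and FLNC at 2.22 are the called members shown, and the relatives lie between -1.24 and 1.51. These errors, too, rest on a spread pooled over genes, not on each gene's own replicates.

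Striated muscle markers were scarce. Of the 10 found, MYL2 had 0 counts in all 4 libraries and TNNT2, MYL4 and ACTA1 were too low to be tested. The summed level of the 10 was 17.1 and 14.7 CPM in GFP-HI and 18.8 and 24.3 CPM in GFP-NEG. None of the 6 tested was called in edgeR, with 1 lower at an unadjusted p under 0.05 and 1 lower in DESeq2.

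In the authors' deposited table of the comparison, 34 of the members are listed. The authors' deposited table calls 6 members higher and 3 lower at an adjusted p under 0.05, beside 8.2% and 11.2% of its 16250 genes. The 5 higher members called here are among its 6, and the sixth is FHL1, with an adjusted p of 0.043 in the authors' deposited table. MYH11, RGS5 and MCAM are its 3 lower members. ACTG2, DES and ABCC9 are not past the threshold in the authors' deposited table (adjusted p of 0.071, 0.20 and 0.084), and LDB3 is not listed in it.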

How the data were processed

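RNA of sorted pig lung cells was sequenced in 4 libraries (Nextera XT, per the labels' protocols). The deposited values are whole-number counts per gene, made with featureCounts (Subread 1.5.2), per the submitters' processing notes. The aligner and strand setting are not given in the sources used here, so overlapping genes are uncertain. The genome build appears only as what reads as a version number in the name of the deposited comparison table, so no coordinates are printed. The authors deposited a table of the comparison with a log2 fold change and an adjusted p-value (DESeq2 1.37.6, per the submitters' processing notes), and its count columns equal the single tables. Its 4 columns of normalized values were not used, because 2 headings name another library than their values. No row lacked a gene name (0 rows).

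Of the identifiers, 834 were renamed with the gene name table. The test was edgeR 4.0.16 (quasi-likelihood, R 4.3.3) with TMM scaling, filterByExpr and group as the only term, over 19682 genes, with Benjamini-Hochberg adjustment and a threshold of 0.05. Standard errors were taken as the log2 fold change over the root of the F statistic. The common dispersion was 0.239, and genewise spread was fully moderated to the trend. Differences within replicates used log2(CPM + 1). DESeq2 1.42.0, other scalings and filters, thinning, the replicate block and leaving out each library were alternatives. The procedure was tested on simulated data. The headings of the authors' table number the pigs, and the block takes same-numbered fractions as those of an animal. The library titles give the replicate number only, so the pairing rests on those headings. They are headings of the normalized columns, some of which name another library than their values, so the pairing is uncertain. Same-numbered libraries' deviations from their group means correlated with an r of 0.19 across genes. Members, lists and tests were chosen with earlier results of these data known. Members with a mean of at least 10 CPM or an adjusted p under 0.05 are given in every library, and of other lists the at most 3 largest calls in each direction, in full or as fold changes. Genes and ratios named beyond this rule were picked with their values in view. The lists of mesothelial, epithelial and dissociation-response genes were computed too: 0 mesothelial genes could be tested, 0 of 11 epithelial genes were higher and 3 lower, and 0 of 11 dissociation genes were higher and 7 lower in edgeR, with the same counts at an unadjusted p under 0.05, and 3 and 8 lower with 0 higher in DESeq2. The genes of 1 list enter the combined count of the other contraction genes and are not reported here by name.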

Additional observations from a re-analysis of the deposited data

How the results depend on the processing

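The number of members called higher was 8 under the replicate block in edgeR and in DESeq2, against 5, and the number called lower was 3 and 2 under these fits and 4 under DESeq2, against 7. The block changed the calls of SMTN, SYNPO2, FHL1, ACTG2, DES, LDB3 and ABCC9, and of no other member in edgeR. Against edgeR without the block, DESeq2 with the block added SMTN, FHL1 and TPM1 and ended the calls of ACTG2, DES, LDB3, ABCC9 and MCAM. Thinning GFP-HI to the mean GFP-NEG depth left MYLK, DES and LDB3 uncalled. Among the other genes named, the edgeR block ended the call of KCNMB1 and added CNN3 and MRTFA. When single libraries were left out, which assumes that the lone library of a group varies like the others, 0 to 16 members were called higher and 1 to 5 lower, and 1 to 20 of the other contraction genes higher and 3 to 7 lower; the member median ran from -0.09 to 1.18 and that of the other contraction genes from -0.0329 to 0.92. Library-size scaling put the latter at -0.0340. MYL9 had no settled sign (0.041 without a filter, 0.11 and 0.10 under the block in edgeR and DESeq2, against -0.00053). Under library-size and upper-quartile scaling, CRYAB was at -0.22 and -0.14, FLNA at -0.22 and -0.13, PDLIM7 at -0.18 and -0.10, FHL2 at -0.27 and -0.14, and NDUFA4L2 at -0.17 and -0.062, where the median of all tested genes moved to -0.68 and -0.58. After thinning, CRYAB was at -0.049 and NDUFA4L2 at -0.11. None of these signs belonged to a called gene. Leaving out single libraries turned the sign of called members in 2 cases, both without GFP-NEG replicate 1: ACTG2 (range -2.70 to 0.61) and DES (-3.30 to 0.92). Signs of uncalled members also turned, over ranges of -0.43 to 2.76 for ACTA2, -0.68 to 1.18 for MYL9, -3.34 to 1.06 for CNN1, -0.65 to 0.38 for LMOD1, -0.11 to 2.31 for TPM2, -0.88 to 2.96 for CRYAB, -0.22 to 0.70 for FLNA, -0.12 to 1.29 for VCL, -0.10 to 0.60 for PDLIM7, -0.56 to 0.81 for FHL2 and -0.35 to 1.06 for NDUFA4L2. Over all genes, 888 and 1083 were higher under library-size and upper-quartile scaling, against 1643, and 3591 and 3263 were lower after thinning and under DESeq2 with the block, against 5433. The cause was not tested. The shallow GFP-NEG libraries limit the low members, since 1 count there is worth 0.110 to 0.155 CPM.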
